A study of Mus musculus with 12 samples.

Results

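Small nucleolar RNAs (snoRNAs) and small Cajal body RNAs (scaRNAs) were followed through 12 total RNA libraries of mouse pancreatic tumours. A gene was included if its symbol begins with Snord (C/D box), Snora (H/ACA box) or Scarna and its counts summed to 120 or more over the 12 libraries. This held for 53 of the 150 genes with such a symbol, among 52636 genes in all: 13 of 99 C/D box RNAs, 33 of 42 H/ACA box RNAs and 7 of 9 scaRNAs. The RNAs were thus chosen by their summed counts, and that they are abundant is no result. The tumours were pancreatic ductal adenocarcinomas of KPC mice on a mixed C57BL/6 and 129 background. KPC mice are a genetic model of pancreatic cancer, and the alleles and the Cre driver behind the abbreviation are not spelled out in the labels. The 4 groups, with 3 mice each, were Cdh11 +/- (heterozygous) given gemcitabine, Cdh11 +/+ (wild-type) given gemcitabine, Cdh11 +/- untreated and Cdh11 +/+ untreated. Cadherin 11, the product of Cdh11, joins mesenchymal cells such as fibroblasts to each other, and gemcitabine is a deoxycytidine analogue used against this cancer. The age and sex of the mice, and how much drug they received and when, were not given in the sources used here.

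SnoRNAs are short, stable noncoding RNAs of the nucleolus, and most are cut out of the introns of other genes after splicing. A C/D box RNA binds fibrillarin, Nop56, Nop58 and Snu13 and guides the methylation of a ribose in ribosomal RNA, whereas an H/ACA box RNA binds dyskerin, Gar1, Nhp2 and Nop10 and guides the conversion of a uridine to pseudouridine. ScaRNAs carry the same boxes but sit in Cajal bodies, where they guide the modification of spliceosomal RNAs. A few snoRNAs act in the cutting of the ribosomal RNA precursor instead of guiding a modification. Many host genes encode ribosomal proteins or translation factors, and others, such as the Snhg genes, make a spliced RNA with no known protein.

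The 12 libraries held between 39388328 and 56559413 counts, and the 53 RNAs took between 0.102% and 0.248% of them. Levels are given in CPM, which are counts scaled by library size and TMM factors. Summed levels of cell type markers are scaled by library size alone. Each ± is the SD over 3 mice for a level and the standard error for a log2 fold change, and fold changes, p-values and adjusted p-values are from edgeR over 24065 genes, all 53 RNAs included. Cdh11 itself was at 109, 141 and 72.0 CPM in treated tumours labelled heterozygous and 142, 62.2 and 123 CPM in treated wild-type tumours. In untreated tumours it was at 148, 115 and 73.7 CPM in heterozygous mice, against 225, 283 and 165 CPM in wild-type mice. The log2 difference was -1.0 (95% interval -1.81 to -0.18, edgeR adjusted p = 0.33) in untreated mice and -0.02 (-0.83 to 0.79) in treated mice. Cdh11 therefore did not separate the treated genotypes, which are called by their labels. All 9 duct and tumour epithelium markers were detected in each group, with summed levels between 3039 and 6944 CPM over the 12 libraries. In pieces of tissue, fewer cells that make an RNA and less of it per cell cannot be told apart.

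The sequences of the RNAs that the results turn on are shown first, as given by GENCODE M21 transcripts of the mouse genome GRCm38. In C/D box RNAs the capitals mark the C box TGATGA, where it was found among the first 30 bases, and the D box CTGA, among the last 15. In H/ACA box RNAs they mark the hinge box ANANNA in the middle of the RNA and ACA within the last 8 bases. Snord22 had the smallest p-value of the 53 RNAs in 5 of the 7 comparisons below. It lies at chr19:8725866-8725991, plus strand, over an exon of its host Snhg1, and is needed for processing of the small-subunit ribosomal RNA in frog oocytes.
Snord22: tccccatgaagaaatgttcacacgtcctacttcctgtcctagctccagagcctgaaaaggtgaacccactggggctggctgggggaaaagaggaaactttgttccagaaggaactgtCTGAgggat
Snord17, at chr2:144265979-144266216, minus strand, in an intron of the sorting nexin gene Snx5, held the most counts of all 53. Snord15a (chr7:99482785-99482932, minus strand) and Snord15b (chr7:99479563-99479707, minus strand) both lie in Rps3, a ribosomal protein gene, and guide methylation of the large-subunit ribosomal RNA. Over an alignment of 162 columns they matched at 107, an identity of 66.0%.
Snord17: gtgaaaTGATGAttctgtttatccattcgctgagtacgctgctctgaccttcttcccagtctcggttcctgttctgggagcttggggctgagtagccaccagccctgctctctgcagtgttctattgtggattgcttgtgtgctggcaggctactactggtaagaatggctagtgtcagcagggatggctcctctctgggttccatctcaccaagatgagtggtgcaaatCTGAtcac
Snord15a: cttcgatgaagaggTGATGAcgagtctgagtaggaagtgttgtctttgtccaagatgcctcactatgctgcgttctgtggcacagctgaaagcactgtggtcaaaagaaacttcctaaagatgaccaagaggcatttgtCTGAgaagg
Snord15b: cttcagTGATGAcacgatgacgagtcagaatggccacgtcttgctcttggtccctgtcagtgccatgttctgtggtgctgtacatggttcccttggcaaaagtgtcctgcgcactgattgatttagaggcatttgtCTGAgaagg
Snora73a (chr4:132352775-132352979, minus strand) and Snora73b (chr4:132352322-132352526, minus strand) are copies of the RNA long known as U17, which acts in processing of the small-subunit ribosomal RNA. Both lie within the span of Rcc1 and match transcripts of Snhg3, and they matched at 198 of 205 aligned positions (96.6%). How the authors' counting divided reads between them is uncertain.
Snora73a: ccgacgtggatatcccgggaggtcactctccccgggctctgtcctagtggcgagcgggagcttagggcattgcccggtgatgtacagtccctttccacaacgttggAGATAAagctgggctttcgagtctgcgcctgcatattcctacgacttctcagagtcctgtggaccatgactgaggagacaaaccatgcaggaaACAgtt
Snora73b: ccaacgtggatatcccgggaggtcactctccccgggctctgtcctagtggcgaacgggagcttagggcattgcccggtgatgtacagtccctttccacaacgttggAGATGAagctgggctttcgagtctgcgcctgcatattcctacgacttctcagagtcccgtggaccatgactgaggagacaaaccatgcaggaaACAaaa
Snora41 (chr1:63179004-63179135, plus strand), in an intron of the elongation factor gene Eef1b2, is shown because it was among the 5 RNAs with the smallest p-values in treated against untreated wild-type tumours. It held 302 counts over the 12 libraries. A copy elsewhere, Gm23723, with at least 95% identity over 50% or more of its length, held 59.
Snora41: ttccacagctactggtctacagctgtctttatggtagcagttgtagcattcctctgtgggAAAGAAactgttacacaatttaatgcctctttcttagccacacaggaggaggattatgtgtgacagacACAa
Snord118 (chr11:69073427-69073561, plus strand), known as U8 and needed for processing of the large-subunit ribosomal RNA, has no host gene here and is shown as an RNA made outside introns.
Snord118: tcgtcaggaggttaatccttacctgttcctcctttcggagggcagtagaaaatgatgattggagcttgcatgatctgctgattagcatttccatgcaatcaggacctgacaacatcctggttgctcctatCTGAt

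Which RNAs were seen followed their annotated length. Of the 89 genes shorter than 100 bases 7 reached 120 counts, with a median of 3 counts over the 12 libraries. Of the 51 genes of 100 to 149 bases 36 did, with a median of 404 counts, and all 10 longer genes did, with a median of 64658 counts. The 13 C/D box RNAs included had a median length of 104 bases and the 86 others 80.5 bases, and 32 of the 99 C/D box genes had no count at all. H/ACA box RNAs are longer, with medians of 134 bases for the 33 included and 132 bases for the 9 others. Just inside the minimum lay Snord16a with 124 counts, Snord14c with 126 and Snora2b with 138. Just outside lay Snora20 and Snord49b with 105 each and Snord8 with 96. The imprinted C/D box cluster Snord116 had 1 count over its 17 genes, and Snord64 and Snord107 had none, so no RNA of these clusters was included. A count of 0 allows up to 3 counts, and such limits cover counting error only.

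**Figure D1:**
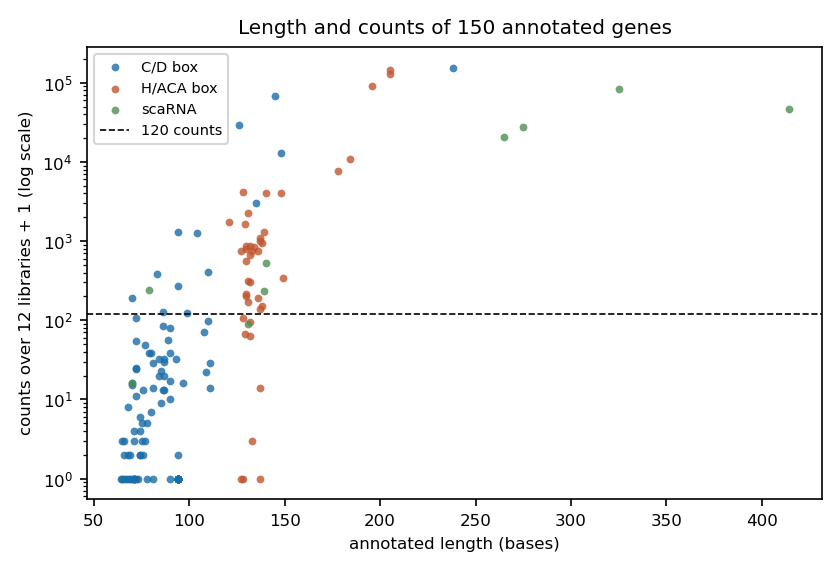
Counts summed over 12 libraries plus 1 (log scale) against annotated length in bases for 150 genes; colours mark the class and the dashed line 120 counts. All 10 genes of 150 bases or more lie above the line, and most of the 89 genes under 100 bases lie below it.

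The classes also kept their sequence marks. Both C/D boxes, as spelled above on the RNA strand, were found in 10 of the 13 C/D box RNAs included, in 59 of the 86 others and in none of the 33 H/ACA box RNAs. Snord22, Snord118 and Snord16a have the D box but no TGATGA in the window. Hinge and ACA were both found in 29 of the 33 H/ACA box RNAs included and in all 9 others. In windows of 130 bases from 21061 protein-coding transcripts, the C/D pair was found in 0.0665% and the H/ACA pair in 6.77%. A match of letters describes the sequence only.

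A few RNAs made up most of the counted level of each class. Counts rose far more steeply than annotated length, as given above, so dividing by length leaves a dependence on length. The values are therefore levels as counted, and the order of Snora73a and Snora73b is uncertain. Per kilobase of annotated length, Snora73a stood highest at 1253 CPM, followed by Snord17 at 1180, Snora73b at 1141, Snord15b at 855 and Snora74a at 833 CPM. The scaRNA Scarna10, which guides both kinds of modification on the spliceosomal RNA U5, was at 462 CPM per kilobase and Snord22 at 418. At the low end Snora2b was at 1.85 CPM per kilobase. The 3 most abundant RNAs held 92.6% of the summed level of C/D box RNAs (Snord17, Snord15b and Snord22), 88.0% of that of H/ACA box RNAs (Snora73a, Snora73b and Snora74a) and 87.7% of that of scaRNAs (Scarna10, Scarna2 and Scarna13).

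Summed levels were lowest in untreated wild-type tumours in all 3 classes, on the TMM scale. They were not rescaled to 7SK RNA, a small RNA described further on whose level was also lowest in untreated wild-type tumours. The order of the groups is therefore given for the TMM scale only. C/D box RNAs summed to 506 ± 70.5 CPM in treated tumours labelled heterozygous, 489 ± 114 in treated wild-type, 632 ± 78.2 in untreated heterozygous and 349 ± 7.2 CPM in untreated wild-type tumours. H/ACA box RNAs had 643 ± 87.1 CPM in treated labelled heterozygous, 773 ± 184 in treated wild-type, 1024 ± 368 in untreated heterozygous and 534 ± 33.5 in untreated wild-type tumours. ScaRNAs had 299 ± 37.7 CPM in treated labelled heterozygous, 351 ± 112 in treated wild-type, 443 ± 74.8 in untreated heterozygous and 196 ± 23.4 in untreated wild-type tumours. All 3 untreated wild-type libraries lay below the other 9 for the C/D box and the scaRNA sum. The H/ACA box sum overlapped, since labelled heterozygous mouse 2 given gemcitabine had 543 CPM and untreated wild-type mouse 3 had 567 CPM. Untreated heterozygous mouse 3 stood apart with 1449 CPM of H/ACA box RNAs, which made up 60.2% of its summed level, against 41.1% to 51.5% in the other 11 libraries.

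**Figure D2:**
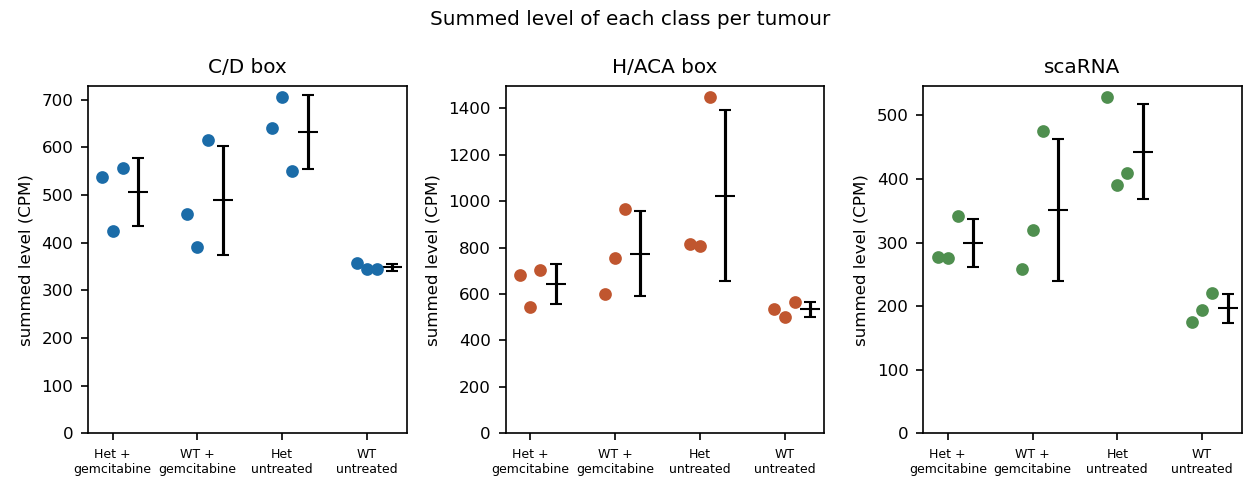
Summed level in CPM of 13 C/D box RNAs, 33 H/ACA box RNAs and 7 scaRNAs in each of 12 tumours; points are mice, bars the mean ± SD of 3 mice. On the TMM scale, untreated wild-type tumours have the lowest mean in each class, 349, 534 and 196 CPM. In the H/ACA box panel 1 untreated heterozygous tumour reaches 1449 CPM.

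In untreated mice, heterozygous tumours had more of nearly every RNA than wild-type tumours: the log2 fold change was above 0 for 52 of the 53, against 53.7% of all genes tested. The median was 1.02 for C/D box RNAs (2.03-fold), 1.14 for H/ACA box RNAs (2.20-fold) and 1.22 for scaRNAs (2.33-fold), against 0.04 over all genes. Scaled to 7SK RNA, another small RNA described further on, 40 of the 53 were above 0, with medians of 0.19 for C/D box and 0.32 for H/ACA box RNAs, while the median of all genes was -0.79. No RNA passed an edgeR adjusted p of 0.05, which 0.0166% of all genes did. An unadjusted p under 0.05 was reached by 36 of the 53, all higher (8 C/D box, 24 H/ACA box and 4 scaRNAs), against 5.51% of all genes. DESeq2 called 17 of the 53 higher, against 1.16% of the genes it tested. The heterozygous and wild-type libraries did not overlap for 35 RNAs, all higher in the heterozygous, against 7.36% of all genes. The exception in direction was Snord14c, at 0.110, 0.216 and 0.0794 CPM in heterozygous and 0.154, 0.115 and 0.256 CPM in wild-type tumours (log2 -0.38 ± 0.71). Snord14c held 126 counts over the 12 libraries and matches a transcript of Hspa8. A copy elsewhere, Snord14d, held 83 counts.

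Snord22 had the smallest p-value. It was at 74.0, 73.6 and 79.4 CPM in heterozygous and 28.6, 25.9 and 35.2 CPM in wild-type tumours, so that the lowest heterozygous library held more than the highest wild-type library. Its log2 fold change of 1.34 ± 0.18 had an edgeR adjusted p of 0.052 and a 95% interval of 0.95 to 1.73. The adjusted p was 0.040 with upper quartile factors, 0.035 with TMM factors over protein-coding genes, 0.039 without a filter on low counts, 0.043 with a stricter filter and 7.2e-09 by DESeq2. Over the edgeR alternatives and libraries left out, the log2 value stayed between 1.25 and 1.47 and the adjusted p between 0.035 and 0.27. Scaled to 7SK RNA it was 0.51.

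Scarna2, which guides methylation of the spliceosomal RNA U2 and is made from its own gene, was at 117, 99.3 and 136 CPM in heterozygous and 30.5, 48.6 and 57 CPM in wild-type tumours (1.37 ± 0.28 on the log2 scale, with an edgeR adjusted p of 0.14). Snora68 was at 5.80, 4.62 and 7.59 CPM in heterozygous and 2.21, 1.82 and 1.87 CPM in wild-type tumours (1.61 ± 0.35 on the log2 scale, with an edgeR adjusted p of 0.16). Both had all heterozygous libraries above all wild-type libraries, as did Scarna6 (1.36 ± 0.31) and Scarna10 (1.22 ± 0.29), the others with the smallest p-values. Among the abundant C/D box RNAs, Snord15b was at 165, 193 and 142 CPM in heterozygous and 87.5, 79.8 and 79.9 CPM in wild-type tumours (log2 1.02 ± 0.24), and its neighbour in Rps3, Snord15a, had 1.53 ± 0.38. Snord17 was at 353, 375 and 283 CPM in heterozygous and 220, 223 and 206 CPM in wild-type tumours (log2 0.64 ± 0.20, below 0 when scaled to 7SK RNA). The groups of Snord15b, Snord15a and Snord17 did not overlap. The H/ACA box RNA Snora73b was at 292, 248 and 465 CPM in heterozygous and 167, 150 and 161 CPM in wild-type tumours (log2 1.07 ± 0.26), with heterozygous mouse 3 the highest. Without that mouse the log2 ratio of summed H/ACA box levels was 0.60 in place of 0.94. The RNAs without a host gene, Snord118 (1.01 ± 0.33) and Snord13 (1.34 ± 0.40), also had differences above 0. Of the other abundant RNAs, Snord21 (1.32 ± 0.38), Snora23 (1.23 ± 0.41), Snora74a (0.86 ± 0.30) and Snora78 (0.99 ± 0.45) had values above 0, as did Snora73a (0.83 ± 0.28), Snord89 (0.59 ± 0.42), Snora81 (0.55 ± 0.31) and Scarna13 (0.58 ± 0.29), which were below 0 when scaled to 7SK RNA. Without heterozygous mouse 3 Snora73a had 0.40 and Snora81 0.31.

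**Figure D3:**
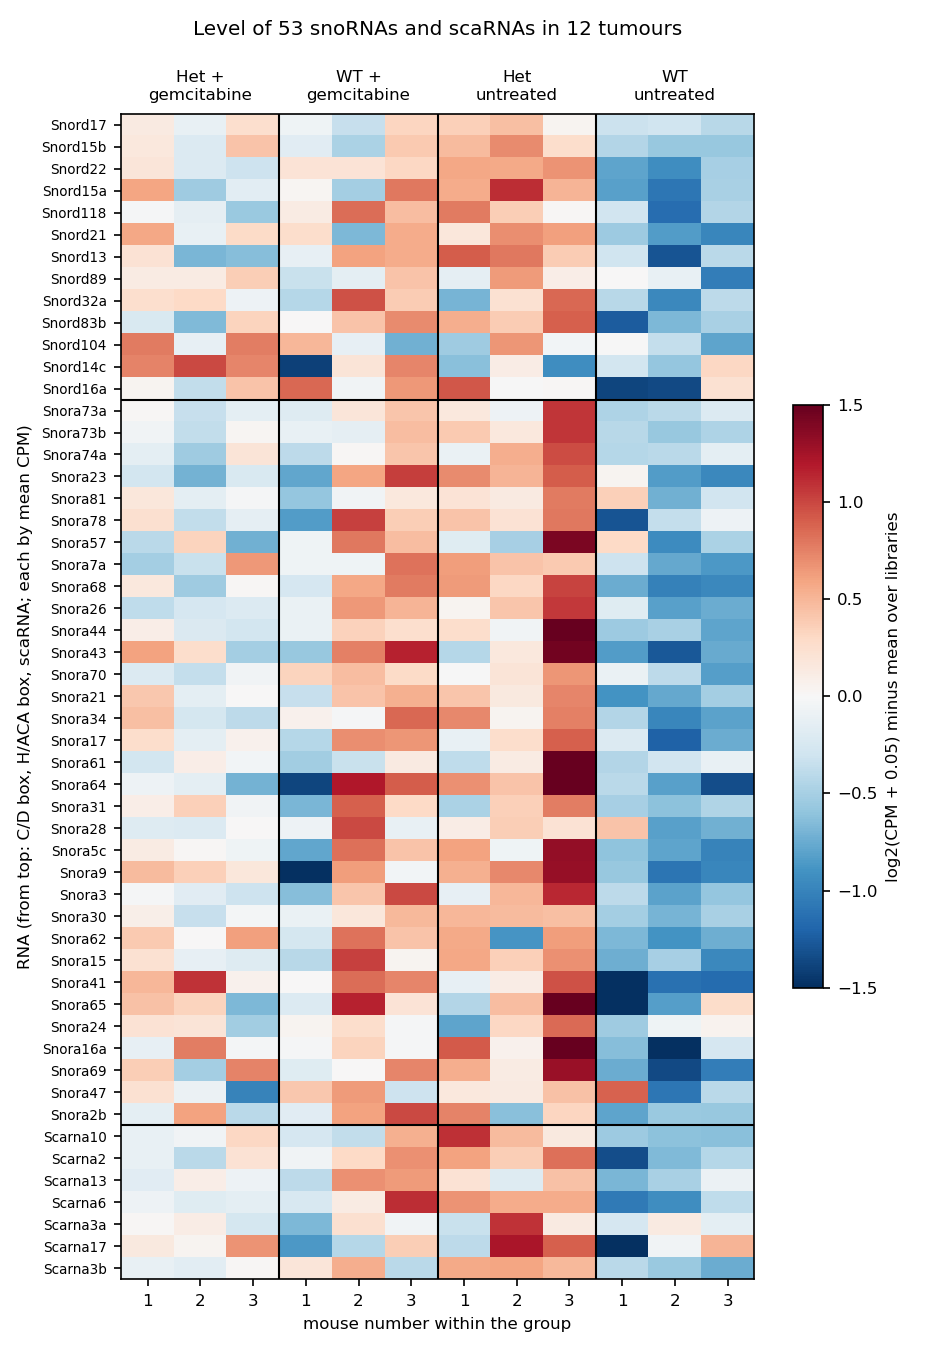
Level of each of 53 RNAs in each of 12 tumours as log2(CPM + 0.05) minus the mean over libraries, colour scale from -1.5 to 1.5; rows run by class and mean CPM, columns by group and mouse. The untreated wild-type columns are blue in most rows, and untreated heterozygous mouse 3 has the deepest red in the H/ACA box rows.

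Gemcitabine in wild-type mice was tested against the same untreated wild-type libraries, so both comparisons share those 3 mice. The log2 fold change was above 0 for 51 of the 53 RNAs, against 51% of all genes. The medians were 0.97 for C/D box RNAs (1.96-fold), 0.96 for H/ACA box RNAs (1.94-fold) and 0.79 for scaRNAs (1.72-fold), with 0.01 over all genes. Scaled to 7SK RNA, 40 of the 53 were above 0, with medians of 0.41 for C/D box and 0.39 for H/ACA box RNAs and -0.51 over all genes. No RNA passed an edgeR adjusted p of 0.05 (0% of all genes did), 28 reached an unadjusted p under 0.05, all higher (4.05% of all genes), and DESeq2 called 2 higher (0.222%), Snord22 and Snora68. Treated and untreated libraries did not overlap for 25 RNAs, all higher with the drug, against 6.53% of all genes. Snord22 was at 57.1, 57.2 and 61.3 CPM in treated and 28.6, 25.9 and 35.2 CPM in untreated wild-type tumours (log2 0.97 ± 0.18, edgeR adjusted p = 0.56). Snora41 had the largest change of the 5 RNAs with the smallest p-values, at 0.459, 0.860 and 0.791 CPM in treated and 0.0882, 0.184 and 0.178 CPM in untreated tumours (log2 2.21 ± 0.53). Its counts were low, 302 in all over the 12 libraries. Snora68 (1.36 ± 0.34), Scarna2 (1.10 ± 0.27) and Scarna6 (1.21 ± 0.31, and 0.71 without treated mouse 3) complete the 5, and for all of them every treated library was above every untreated one. Snord17, the RNA with the most counts, was at 263, 217 and 344 CPM in treated and 220, 223 and 206 CPM in untreated tumours, with overlap (log2 0.35 ± 0.20, 0.15 without treated mouse 3 and below 0 when scaled to 7SK RNA), and Snora81 had 0.02 ± 0.31.

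In heterozygous mice the same drug went with the opposite direction. The untreated heterozygous libraries are those compared with untreated wild-type ones above, so both comparisons share those 3 mice. Of the 53 RNAs 49 had a log2 fold change below 0 in treated tumours labelled heterozygous against untreated heterozygous tumours, where 46.8% of all genes were above 0. The medians were -0.35 for C/D box RNAs (0.08 when scaled to 7SK RNA), -0.58 for H/ACA box RNAs and -0.56 for scaRNAs, with -0.03 over all genes. With that scaling 35 of the 53 were below 0 and the H/ACA box median was -0.16, with 0.39 over all genes. No RNA passed an edgeR adjusted p of 0.05 (0.00831% of all genes did), 10 reached an unadjusted p under 0.05, all lower (3.48%), and DESeq2 called Snord22 lower (0.226% of the genes it tested). The groups did not overlap for 17 RNAs that were lower (6.08% of all genes) and for Snord14c, which was higher (6.64%). Snord22 was at 56.4, 43.1 and 40.0 CPM in treated and 74.0, 73.6 and 79.4 CPM in untreated tumours (log2 -0.70 ± 0.18, edgeR adjusted p = 0.59). Snora73b was at 214, 172 and 227 CPM in treated and 292, 248 and 465 CPM in untreated tumours (log2 -0.71 ± 0.25). Snora23, in an intron of the importin gene Ipo7, was at 14.5, 10.8 and 15 CPM in treated and 28.9, 25.2 and 33.0 CPM in untreated tumours (log2 -1.11 ± 0.41). Snord13, known as U13 and also without a host gene, was at 2.40, 1.26 and 1.30 CPM in treated and 3.89, 3.58 and 2.68 CPM in untreated tumours (log2 -1.03 ± 0.40). In these 4 every treated library lay below every untreated one, as for Scarna2 (-0.69 ± 0.27). Without untreated mouse 3 the log2 ratio of summed H/ACA box levels was -0.34 in place of -0.67, the value of Snora73b was -0.40, and 42 of the 53 RNAs were below 0.

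The difference between the gemcitabine effects of the genotypes was tested directly, on the same 12 libraries as the comparisons above. It was below 0 for 51 of the 53 RNAs (45.8% of all genes were above 0), with medians of -1.18 for C/D box RNAs, -1.44 for H/ACA box RNAs and -1.19 for scaRNAs, against -0.07 over all genes. Scaled to 7SK RNA, 43 of the 53 were below 0, with medians of -0.22 for C/D box and -0.46 for H/ACA box RNAs and 0.87 over all genes. No RNA passed an edgeR adjusted p of 0.05 (0.00831% of all genes did), 33 reached an unadjusted p under 0.05, all lower (5.52%), and DESeq2 called 9 of the 51 that it tested lower (0.878%). The smallest p-values were those of Snord22 (-1.67 ± 0.25, edgeR adjusted p = 0.13), Scarna2 (-1.79 ± 0.39), Snora68 (-2.14 ± 0.48), Scarna6 (-1.94 ± 0.44) and Snord118 (-1.73 ± 0.47). For 13 RNAs every treated wild-type library was above every untreated one while every treated library labelled heterozygous was below every untreated heterozygous one, which 0.627% of all genes showed. They were Snord22, Snord118, Snord13, Snord83b, Snora73b, Snora68, Snora26, Snora70, Snora30, Snora15, Scarna2, Scarna6 and Scarna3b. On the TMM scale, all 3 untreated wild-type libraries lay below the other 9 for 16 RNAs, 1 C/D box, 11 H/ACA box and 4 scaRNAs, against 1.03% of all genes.

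**Figure D4:**
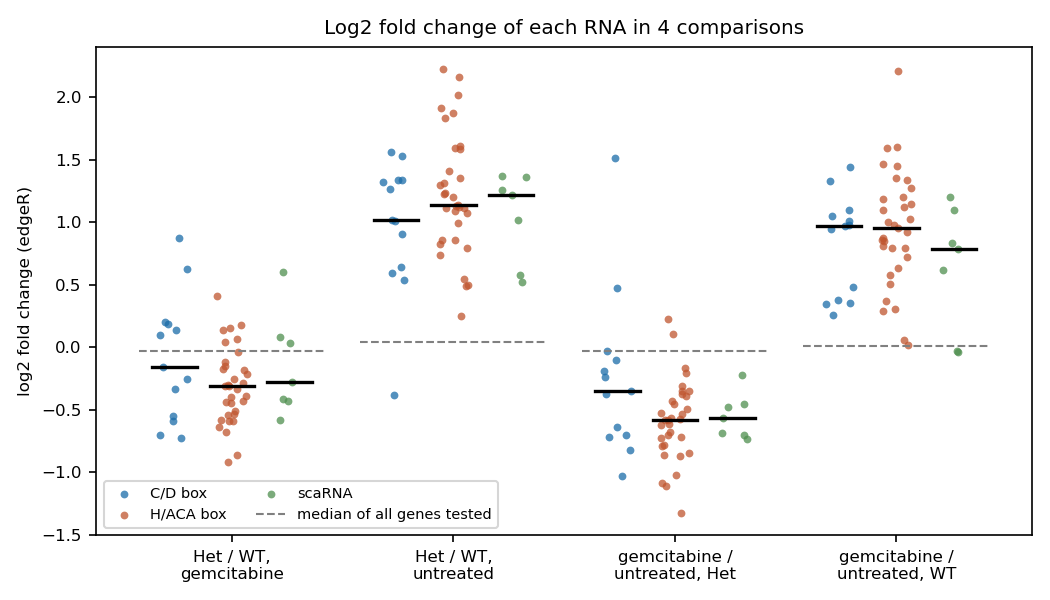
Log2 fold changes of 53 RNAs in 4 comparisons; points are RNAs coloured by class, black bars class medians, dashed lines the median of all genes tested. The points lie mostly above the dashed line for untreated heterozygous against wild-type and for gemcitabine in wild-type mice, and mostly below it for gemcitabine in mice labelled heterozygous, where the C/D box median of -0.35 is 0.08 when scaled to 7SK RNA.

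Among treated mice the genotypes lay closer together. Tumours labelled heterozygous had values below those of wild-type tumours for 38 of the 53 RNAs (46.9% of all genes were above 0), with medians of -0.16 for C/D box RNAs, -0.31 for H/ACA box RNAs and -0.28 for scaRNAs. The C/D box median was 0.26 without treated wild-type mouse 3 and 0.07 without labelled heterozygous mouse 2. No RNA passed an edgeR adjusted p of 0.05 (0.00416% of all genes did), 1 reached an unadjusted p under 0.05 (2.89% of all genes were lower at that level), and DESeq2 called 0 (0.785% of the genes it tested were called higher and 0.266% lower). The groups did not overlap for 4 RNAs that were lower (6.59%) and 1 that was higher (7.12%). The RNA with the smallest p-value was Snord118, at 5.15, 4.73 and 3.51 CPM in tumours labelled heterozygous, against 5.66, 9.34 and 7.17 CPM in wild-type ones (log2 -0.73 ± 0.33, edgeR adjusted p = 0.66). Snora26, over an exon of the noncoding gene Dancr, was at 2.22, 2.45 and 2.53 CPM in tumours labelled heterozygous, against 2.71, 4.60 and 4.17 CPM in wild-type ones (log2 -0.67 ± 0.35). Both pairs of groups were apart, by a small gap. Snora23 (-0.86 ± 0.41), Scarna6 (-0.58 ± 0.31) and Snord22 (-0.33 ± 0.18) complete the 5 with the smallest p-values. With Xist as a covariate the values were -0.085 for Snord118, -0.34 for Scarna6 and -0.21 for Snord22. Xist was high in all 3 treated wild-type libraries and in none of the treated labelled heterozygous ones, so its part and that of genotype cannot be told apart here. Without treated wild-type mouse 3 the value of Snora23 was -0.45 and that of Scarna6 -0.09.

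The genotype average was above 0 for 51 RNAs (51.3% of all genes), with medians of 0.40 for C/D box and 0.43 for H/ACA box RNAs. It had no RNA past an edgeR adjusted p of 0.05 (0.0332% of all genes), 12 higher at an unadjusted p under 0.05 (3.7%) and 1 call by DESeq2 (0.588%), Snord22 at 0.50 ± 0.12. Next came Snord15b at 0.60 ± 0.17, Snora9, over an exon of Snhg15, at 1.12 ± 0.35, Scarna10 at 0.62 ± 0.20 and Snora41 at 1.03 ± 0.35. The gemcitabine average was above 0 for 41 RNAs (49.1% of all genes), with medians of 0.23 and 0.14. It had no RNA past an edgeR adjusted p of 0.05 (0.00831% of all genes), 1 higher at an unadjusted p under 0.05 (2.25%), Snora41 at 1.22 ± 0.36, and 0 calls by DESeq2 (0.071% of the genes it tested were called higher and 0.0501% lower). Snora62 (0.69 ± 0.35), Snord14c (0.88 ± 0.49), Snora2b (0.62 ± 0.42) and Snora43 (0.58 ± 0.40) followed.

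SnoRNAs and their host genes were compared next. Of the 53 RNAs 25 lay over an exon of any gene around them, 20 in an intron and 8 in no gene on their strand. Of the 53, 15 were inside ribosomal protein genes. The strand setting of the counting was not given in the sources used here, and RSEM can divide reads over a host exon between the RNA and its host, so the 25 are less certain. For 44 RNAs with a tested host, there were 39 hosts. Where several genes held an RNA, a named protein-coding gene was taken as its host. Snora73a and Snora73b were thus paired with Rcc1, although they match transcripts of Snhg3. In untreated mice, 35 of the 39 hosts had a log2 fold change above 0 in heterozygous against wild-type tumours, with a median of 0.48, and 0 passed an edgeR adjusted p of 0.05. An unadjusted p under 0.05 was reached by 9, where 5.51% of all genes were higher and 6.65% lower at that level. Without heterozygous mouse 3 the host median was 0.20 with 31 above 0. Scaled to 7SK RNA it was -0.35 with 7 above 0, against a median of -0.79 over all genes. The RNA had the larger value in 41 of the 44 pairs, by a median of 0.69, and in 41 also without mouse 3 (0.80). Scaling to 7SK RNA (41 pairs, 0.69) shifts an RNA and its host nearly alike, so it is no check of this difference. Medians were 1.25 for RNAs over a host exon and 1.11 for RNAs in an intron. In treated against untreated wild-type tumours 33 hosts were above 0, with a median of 0.40 (0.15 without treated mouse 2). The RNA exceeded its host in 36 pairs. Scaled to 7SK RNA the host median was -0.11, against -0.51 over all genes. In treated tumours labelled heterozygous against untreated heterozygous ones the hosts had a median of -0.27, with 6 of the 39 above 0. That median was -0.07 without untreated mouse 3 and 0.16 when scaled to 7SK RNA, where the median of all genes was 0.39.

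Single pairs differed in how the host moved. Snhg1, the host of Snord22, was at 39.8, 31.7 and 85.7 CPM in untreated heterozygous and 31.0, 28.0 and 28.5 CPM in untreated wild-type tumours (log2 0.85 ± 0.34). Its heterozygous libraries spread over a wide range, whereas those of Snord22 lay between 73.6 and 79.4 CPM. Rps3 was at 648, 456 and 678 CPM in untreated heterozygous and 265, 368 and 457 CPM in untreated wild-type tumours (log2 0.71 ± 0.27), with overlap, next to 1.02 and 1.53 for Snord15b and Snord15a. Snx5, the host of Snord17, went the other way, at 82.3, 93.8 and 136 CPM in untreated heterozygous and 91.7, 153 and 140.0 CPM in untreated wild-type tumours (log2 -0.30 ± 0.27). Scarna6 had 1.36 beside 0.10 ± 0.16 for Atg16l1, an autophagy gene. Snora26 and Dancr lay close together, at 1.14 and 1.06. Of the RNAs that share Snhg12, Snora44 had 1.35 ± 0.40, Snora61 1.30 ± 0.56 and Snora16a 2.22 ± 0.85, which lie within their errors of each other.

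**Figure D5:**
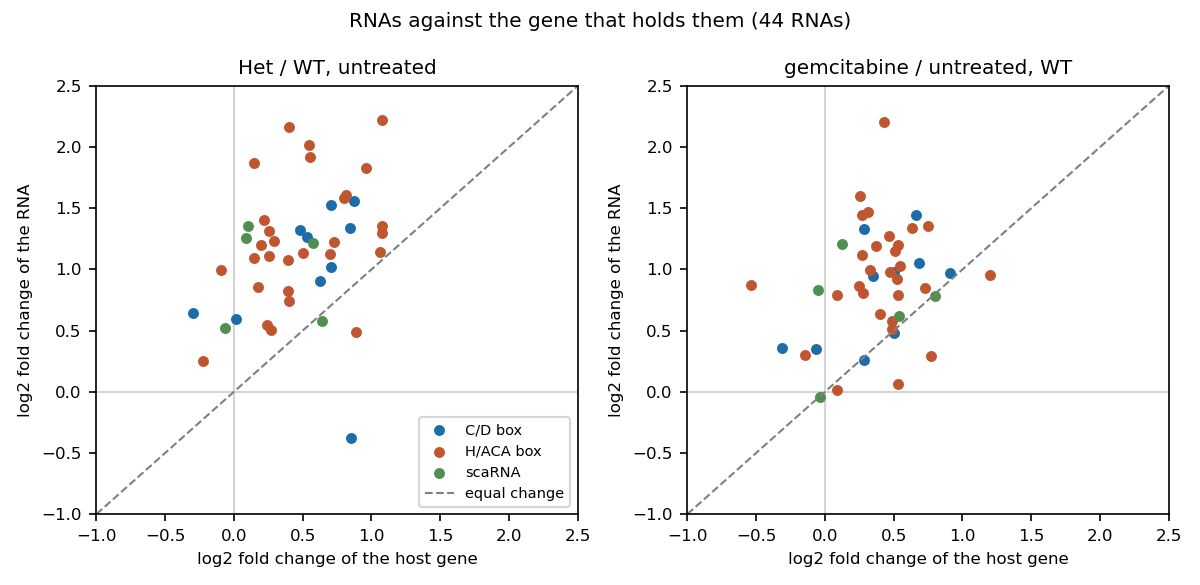
Log2 fold change of each RNA (vertical) against that of its host gene (horizontal) for 44 RNAs, in heterozygous against wild-type untreated tumours (left) and treated against untreated wild-type tumours (right); the dashed line marks equal change. In the left panel 41 points and in the right panel 36 points lie above the line.

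The genes of the proteins that bind these RNAs were examined with and without untreated heterozygous mouse 3, which stood apart above. Scaled to 7SK RNA, the median of all genes was -0.79 between untreated genotypes. It was -0.51 for gemcitabine in wild-type mice and 0.39 in heterozygous mice. Between untreated heterozygous and wild-type tumours the 4 core proteins of C/D box particles had a median log2 fold change of 0.68, all above 0. Their median was 0.26 without mouse 3 and -0.16, with none above 0, when scaled to 7SK RNA. None passed an edgeR adjusted p of 0.05. Nop58, a scaffold of the C/D box particle, was at 71.4, 46.5 and 115 CPM in heterozygous and 38.7, 43.9 and 52.1 CPM in wild-type tumours (log2 0.79 ± 0.33), with overlap. The 4 core proteins of H/ACA box particles had a median of 0.58, which was 0.04 without mouse 3, with 2 of the 4 above 0, and -0.25 when scaled to 7SK RNA. Dkc1, the pseudouridine synthase gene, was at 32.8, 16.9 and 74.3 CPM in heterozygous and 26.8, 26.2 and 23.3 CPM in wild-type tumours (log2 0.70 ± 0.46, and -0.04 without mouse 3). Without that mouse the median of the 53 RNAs was 0.92, with 51 above 0. Of 16 assembly and transport genes 12 were above 0 (median 0.21, 0.05 without mouse 3 and -0.63 when scaled to 7SK RNA), and of 21 noncoding host genes 15 (0.56, 0.15 and -0.28). In treated against untreated wild-type tumours all 4 C/D box and all 4 H/ACA box core proteins were above 0, with medians of 0.88 and 0.61 (0.35 and 0.10 when scaled to 7SK RNA, where 2 of the 4 H/ACA box proteins were above 0, and 0.56 and 0.40 without treated mouse 2). In heterozygous mice the C/D box proteins had a median of 0.05 with the drug and the H/ACA box proteins -0.11 (0.41 and 0.39 without untreated mouse 3, and 0.48 and 0.32 when scaled to 7SK RNA).

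Other small structured RNAs outside the symbol classes had values in the same direction. All 16 genes of that kind that were tested were above 0 in untreated heterozygous against wild-type tumours, with a median of 0.59, and all 16 in treated against untreated wild-type tumours, with a median of 0.45. In treated tumours labelled heterozygous against untreated heterozygous ones 15 of the 16 were below 0, with a median of -0.45. Scaled to 7SK RNA, which is 1 of the 16, the medians were -0.24, -0.08 and -0.02, against -0.79, -0.51 and 0.39 over all genes. None passed an edgeR adjusted p of 0.05. The 7SK RNA Rn7sk, which holds a transcription elongation factor inactive, was at 20525, 20004 and 19614 CPM in treated labelled heterozygous, 19034, 21624 and 25550 in treated wild-type, 25933, 27568 and 27249 in untreated heterozygous and 15572, 14962 and 14870 CPM in untreated wild-type tumours. The untreated genotypes did not overlap (log2 0.83 ± 0.21). Rnu12, a spliceosomal RNA of the minor class, had 1.22 ± 0.31 in untreated heterozygous against wild-type tumours. Terc, the telomerase RNA, which carries H/ACA boxes, had 1.91 ± 0.70, and the 2 genes named Rnu3a, which encode the C/D box RNA U3, had 2.62 ± 0.74 and 1.15 ± 0.32. With library sizes scaled to 7SK RNA, a scaling chosen after these values were seen, all genes shifted to a median of -0.79 in untreated heterozygous against wild-type tumours. The 53 RNAs then had a median of 0.32, with 40 above 0 and 52 above the median of all genes. A change of scale moves all genes nearly alike, so the place of the RNAs against that median is no separate result.

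Markers of several cell types differed between the same groups. All 10 fibroblast markers were below 0 in untreated heterozygous against wild-type tumours, with a median of -1.26 and summed levels between 4436 and 6865 CPM in heterozygous and between 11327 and 15680 CPM in wild-type tumours. Of 18 acinar markers 17 were below 0, with sums between 6.98 and 35.0 CPM in heterozygous and between 10.5 and 614 CPM in wild-type tumours, and 5 of them were at 0 in all heterozygous libraries. All 10 islet markers were below 0 (median -5.28), as were all 8 macrophage markers (median -0.87, and -0.09 without wild-type mouse 2). All 9 duct and tumour epithelium markers were above 0, with a median of 0.28. That median was -0.52 when scaled to 7SK RNA, where the median of all genes was -0.79. Of 10 lymphocyte and plasma cell markers 7 were above 0 (median 0.64, and -0.72 without heterozygous mouse 3), and 7 of 8 hepatocyte markers (4 of 8 without wild-type mouse 3) and 4 of 5 erythroid markers (2 of 5 without heterozygous mouse 3) were below 0. In treated against untreated wild-type tumours all 10 fibroblast (median -0.83), 10 islet (-3.49), 18 acinar (-1.67), 5 erythroid (-2.29) and 8 macrophage markers (-0.89) were below 0. Of these cell types, all but erythroid cells had summed levels that overlapped between the groups. In treated tumours labelled heterozygous against untreated heterozygous ones all 10 islet (median 3.62), 10 lymphocyte and plasma cell (2.80) and 8 macrophage markers (1.01) were above 0, and 8 of 9 duct markers were below 0 (-0.48). There 8 of 10 fibroblast markers were above 0 (0.25) and all 5 erythroid markers below 0 (-1.51). Summed islet levels overlapped, at 2.10 to 82.5 CPM in treated and 0.96 to 6.30 CPM in untreated tumours. Lymphocyte and plasma cell sums also overlapped (42.8 to 1861 against 13.7 to 90.7 CPM), whereas macrophage sums did not (1469 to 3120 against 613 to 1160 CPM). Between treated genotypes all 10 lymphocyte and plasma cell (median 4.31), 10 islet (1.41) and 8 macrophage markers (1.00) were above 0 and all 18 acinar markers below 0 (-5.79). Acinar sums overlapped, at 6.27 to 11.5 CPM in tumours labelled heterozygous and 6.11 to 263 CPM in wild-type ones. So did lymphocyte and plasma cell sums (42.8 to 1861 against 8.03 to 47.1 CPM) and islet sums (2.10 to 82.5 against 1.84 to 25.3 CPM). Macrophage sums were just apart (1469 to 3120 against 618 to 1467 CPM). None of these markers passed an edgeR adjusted p of 0.05. Of the transcripts of the mitochondrial genome, 16 of 16 tested were above 0 between untreated genotypes, with a median of 0.45. Scaled to 7SK RNA their median was -0.38, against -0.79 over all genes. The median of the 53 RNAs was 1.06 with acinar markers as a covariate and 1.20 with Xist as a covariate. Xist, made in female cells, was over 1000 CPM in 6 libraries, 0 of the treated labelled heterozygous, 3 of the treated wild-type, 1 of the untreated heterozygous and 2 of the untreated wild-type. Acinar markers differed between the same genotypes, so the fit with that covariate cannot separate cell makeup from genotype. No other cell type was used as a covariate. The part of cell makeup in the snoRNA differences was not tested.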

How the data were processed

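Total RNA from snap-frozen tumours was made into stranded libraries after ribosomal RNA depletion, per the labels' protocols. The deposited values are expected counts per gene, which the authors made with RSEM on GRCm38, per the submitters' processing notes. The RSEM version, aligner, annotation release and strand setting were not given in the sources used here. They are whole numbers as deposited and were fitted here with edgeR 4.0.16 in R 4.3.3 (quasi-likelihood test, 4 groups in 1 model, TMM factors). The 24065 genes passing edgeR's filter on low counts were tested, with Benjamini-Hochberg adjustment over all of them and a threshold of 0.05. The fit was tested on simulated data. The libraries are separate mice, 3 per group, with 39388328 to 56559413 counts each, and intervals on counts cover counting error only. Named RNAs are the 5 with the smallest p-values in each comparison, the most abundant 8 C/D box, 6 H/ACA box and 4 scaRNAs, the 3 on each side of the minimum count and the hosts of the first. Others are named beside a small count or a shared host. Alternatives were DESeq2 1.42.0, other scaling factors, other filters, fewer groups, a replicate block, covariates and libraries left out. Scaling to 7SK RNA, and the values of hosts and gene lists with a library left out or rescaled, were added after seeing the data. Copies were sought with blastn 2.17.0. The RNAs and gene lists were chosen with earlier results of these data known. Some sequences and a host gene are not reported here.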

Additional observations from a re-analysis of the deposited data

Results flagged for a closer look

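The gemcitabine effect on the summed H/ACA box level differed between the genotypes by -1.2 on the log2 scale, heterozygous minus wild-type. That on the summed scaRNA level differed by -1.41. In both, on the TMM scale, every treated tumour labelled heterozygous lay below the untreated heterozygous tumours. Every treated wild-type tumour lay above the untreated wild-type tumours. Without untreated heterozygous mouse 3, the log2 ratio of H/ACA box sums for gemcitabine in heterozygous mice was -0.34, smaller in size than with that mouse. These sums were not rescaled to another RNA, so their values and order are given for the TMM scale only. The difference between these sums was not tested. For single RNAs the same difference was tested, and none passed an edgeR adjusted p of 0.05, while 33 of the 53 were lower at an unadjusted p under 0.05 (5.52% of all genes) and DESeq2 called 9 of the 51 that it tested lower (0.878% of the genes it tested).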

How the results depend on the processing

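In untreated heterozygous against wild-type tumours, 1 RNA was called by edgeR, against 0, with upper quartile factors, with TMM over protein-coding genes, without a filter and with at least 10 counts in 6 libraries, and 0 to 1 when a library was left out (1 without untreated wild-type mouse 3 or treated labelled heterozygous mouse 1). DESeq2 called 17 there (1.16% of all genes it tested), 2 for gemcitabine in wild-type mice (0.222%), 1 in heterozygous mice (0.226%), 9 for the difference between these effects (0.878%) and 1 for the genotype average (0.588%). Scaled to 7SK RNA, the C/D and H/ACA box medians were 0.19 and 0.32 between untreated genotypes and 0.41 and 0.39 for gemcitabine in wild-type mice. They were -0.22 and -0.46 for the difference between effects, and the H/ACA box median was -0.16 for gemcitabine in heterozygous mice. Signs turned with that scaling between untreated genotypes for Snord17 (-0.19), Snord89 (-0.24), Snora73a (-0.0091), Snora81 (-0.28) and Scarna13 (-0.25). For gemcitabine in wild-type mice they turned for Snord15b (-0.070), Snord14c (-0.35), Snord17 (-0.20), Snord89 (-0.20), Snora73a (-0.045), Snora74a (-0.20) and Snora81 (-0.53). There Snora81 also turned with upper quartile factors (-0.00349), an Xist covariate (-0.044), an acinar covariate (-0.10) and without a library (range -0.19 to 0.36, below 0 without untreated wild-type mouse 2 or 3 or treated wild-type mouse 2 or 3), and Snord14c with an acinar covariate (-0.017) and without treated wild-type mouse 3 (range without a library -0.35 to 0.74). The cause was not tested.

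Without the 3 most abundant RNAs of a class, the log2 ratio of C/D box sums was 1.38 between untreated genotypes, 0.98 and -0.64 for gemcitabine in wild-type and heterozygous mice and -0.25 between treated genotypes. That of scaRNAs was 1.16 for gemcitabine in wild-type mice and -0.55 between treated genotypes. With 1 library left out, the ratio of H/ACA box sums ranged from 0.60 to 1.09 between untreated genotypes and from -0.82 to -0.34 for gemcitabine in heterozygous mice, both nearest 0 without untreated heterozygous mouse 3. That of scaRNAs ranged from 0.56 to 1.02 for gemcitabine in wild-type mice and from -0.41 to 0.047 between treated genotypes, with 0.56 and 0.047 without treated wild-type mouse 3. The C/D box median for gemcitabine in heterozygous mice was -0.17 without labelled heterozygous mouse 2.

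With the replicate number as a block, edgeR called 0 RNAs in each comparison, and the medians between untreated genotypes were 1.03 for C/D box and 1.12 for H/ACA box RNAs. Of 18 correlations between same-numbered mice, from -0.247 to 0.173, 4 were over 0.1. They were not set against those of differently numbered mice, so they cannot settle whether the numbers pair the mice.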
